A study of Mus musculus with 8 samples.

Results

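Ribosome biogenesis and nucleolar genes were followed in leukemia cells of transgenic mice. The set had 40 members: nucleolar proteins, small nucleolar RNA-protein (snoRNP) components, factors that build the small and the large ribosomal subunit, subunits of RNA polymerase I, and the pyrimidine synthesis enzyme CAD. Members were found by name in the deposited gene table, current synonyms included, and 33 of the 40 were present among 16419 genes. NPM1, DKC1, WDR43, WDR75, POLR1C, DDX18 and LYAR were not in that table, and these 7 members are described from the deposited probe set table.

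Leukemia cells came from 4 ROR1xTCL1 mice, which carry a ROR1 and a TCL1 transgene, and from 4 TCL1 mice, which carry the TCL1 transgene alone. The TCL1 transgene, present in both groups, is driven by the Eµ immunoglobulin heavy chain enhancer per the title of the study, and it gives rise to a B cell leukemia that models human chronic lymphocytic leukemia. The promoter of the ROR1 transgene, the strain, the sex and the age of the mice are not given in the sources used here. Total RNA of each mouse was hybridised to its own Affymetrix Mouse Exon 1.0 ST array, without technical replicates, so values of 1 group vary between animals. ROR1, a surface receptor for Wnt5a, averaged a log2 value of 4.41 ± 0.34 in ROR1xTCL1 mice and 3.77 ± 0.17 in TCL1 mice (SD, n = 4 each). All ROR1xTCL1 arrays were above all TCL1 arrays, the lowest at 4.07 against the highest TCL1 array at 4.03 (adjusted p = 0.9995 in limma). Such a lack of overlap, higher in ROR1xTCL1 mice, was found for 0.359% of all genes. ROR1 was low on every array, at most 4.85, against medians of 5.03 to 5.09 over all genes of an array. The B cell receptor component CD79A was bright on all arrays, at 11.68 ± 0.11 in ROR1xTCL1 mice and 11.80 ± 0.08 in TCL1 mice (SD, n = 4 each).

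Ribosomes are assembled around ribosomal RNA that RNA polymerase I transcribes in the nucleolus. The precursor is modified by snoRNPs, cut and folded by the small subunit processome and by pre-60S factors, and the 2 subunits are exported to the cytoplasm. In many cell types, including B cells, these genes are activated together by the transcription factor MYC, which binds E-box sequences such as CACGTG, and their output goes with growth and proliferation. CAD carries out the first steps of pyrimidine synthesis and is a long-known MYC target.

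The canonical E-box CACGTG was looked up in the promoters of the members, because it is the sequence through which shared activation of these genes is best known. RefSeq promoter windows of mouse assembly GRCm38.p6, which run from 250 bases before to 50 bases after the annotated start, were found for 33 of the 40 members. CACGTG, which reads the same on both strands, was present in 6 of these 33 windows (18.2%), those of NOP2, UTP20, PES1, PNO1, MYBBP1A and WDR43, against 2187 of 27025 gene windows (8.09%). The matches are given for the 4 such members that followed the other members most closely over the arrays, written 5′ to 3′ on the strand of the gene with the E-box in capitals. They lie at chr10:88826765-88826787 on the minus strand for UTP20, and on the plus strand at chr11:3963967-3963992 for PES1, chr6:125131783-125131868 for NOP2 and chr11:72441357-72441376 for MYBBP1A.
UTP20: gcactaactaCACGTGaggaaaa
PES1: ctaggcagggCACGTGcgggaggaag
NOP2: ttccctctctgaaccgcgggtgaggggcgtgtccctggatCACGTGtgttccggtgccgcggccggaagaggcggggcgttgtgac
MYBBP1A: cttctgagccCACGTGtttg
The match in NOP2 began 60 bases before the annotated start, while those in UTP20, PES1 and MYBBP1A began 38, 3 and 41 bases after it. A match is a description of these letters, and binding was not measured. The 5 members of the gene table with a match had a median log2 difference of 0.03 between ROR1xTCL1 and TCL1 mice, and the 22 with a window and no match one of 0.05.

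All 33 members in the gene table were expressed above the dim range of the arrays. Their mean log2 values lay between 5.36 and 10.35, against first quartiles of 3.52 to 3.71 and medians of 5.03 to 5.09 over all genes of an array. Over the 8 arrays a member's lowest and highest value differed by a median of 0.53 log2 units, from 0.19 for WDR74 to 1.30 for FBL.

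ROR1xTCL1 and TCL1 leukemias did not differ detectably in any member. No member passed an adjusted p under 0.05 in limma's test over all genes, and 0% of the 16419 genes did. The smallest unadjusted p of a member was 0.0975, so none was under 0.05, where 0.493% of all genes were higher and 1.14% lower in ROR1xTCL1 mice. The arrays of the groups overlapped for every member, while 0.359% of all genes were higher and 0.737% lower in ROR1xTCL1 mice without overlap. 27 of the 33 members had a difference above 0, against 45.9% of all genes, and the median difference was 0.05 log2 units, against -0.01 over all genes. Members are not replicates, so these counts carry no test. The differences ran from -0.11 to 0.32, and 20 members were within 0.1 of 0.

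The intervals bound what 4 mice per group could have shown. The 95% intervals of all 33 members included 0 and lay inside a 2-fold difference either way. For 28 members they also lay inside 0.5 log2 units, which is 1.41-fold. The median half-width was 0.27, against 0.34 over all genes, and the outermost bounds were -0.56 (FBL) and 0.89 (RRS1).

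**Figure D1:**
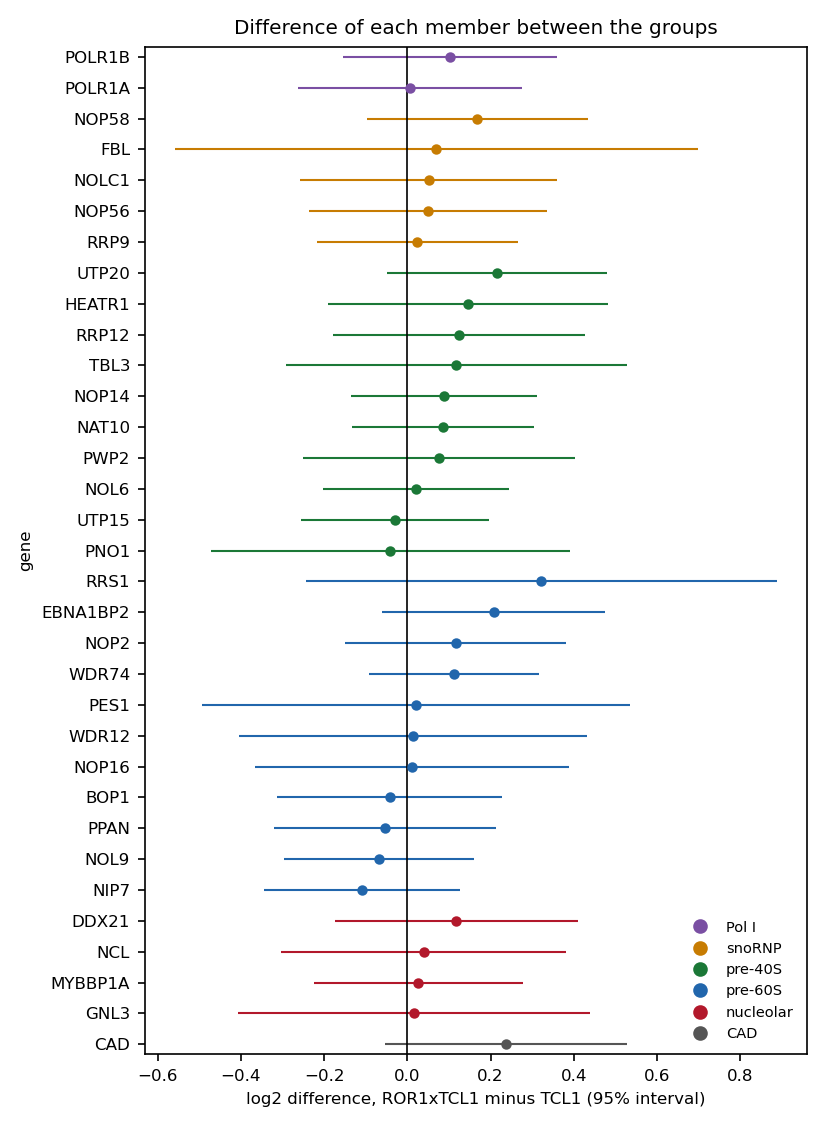
Log2 difference of each of the 33 members between ROR1xTCL1 and TCL1 mice (horizontal axis; points, with 95% intervals of the limma fit as lines; n = 4 each), grouped and coloured by role. Every interval crosses 0, with RRS1 at 0.32 and NIP7 at -0.11 as the outermost points.

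RNA polymerase I is represented by POLR1A, its largest subunit, and POLR1B, its second largest. POLR1A differed by 0.01 ± 0.12 and POLR1B by 0.10 ± 0.11 log2 units (SE), ROR1xTCL1 minus TCL1. POLR1B was highest on ROR1xTCL1 array b (6.57) and lowest on TCL1 array a (6.15).

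Of the snoRNP members, all 5 in the gene table had differences above 0, from 0.02 (RRP9) to 0.17 (NOP58), with a median of 0.05. FBL, the methyltransferase of the box C/D snoRNPs, had log2 values of 9.14, 8.36, 9.46 and 9.65 on ROR1xTCL1 arrays a to d, against 8.94, 8.93, 9.53 and 8.92 on TCL1 arrays a to d. Its lowest and highest value both belonged to ROR1xTCL1 arrays, b and d, so the TCL1 values lay wholly within the range of the other group. The difference was 0.07 ± 0.28 (SE), with the largest spread over the 8 arrays of any member (SD 0.42). NOP56 and NOP58, which form the scaffold of the same particle, differed by 0.05 ± 0.13 and 0.17 ± 0.12 (SE). NOLC1, a chaperone of snoRNPs, differed by 0.05 ± 0.14, and RRP9, a protein of the snoRNP that guides early cleavages of the precursor, by 0.02 ± 0.11 (SE).

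The 10 small subunit processome and pre-40S members had a median difference of 0.09, with 8 of 10 above 0. UTP20, a large scaffold of the processome, had values of 6.15, 6.46, 6.30 and 6.31 on ROR1xTCL1 arrays a to d, against 5.93, 6.29, 6.05 and 6.10 on TCL1 arrays a to d. All ROR1xTCL1 arrays but a exceeded every TCL1 array, and array a exceeded 3 of them. The difference was 0.22 ± 0.12 (SE; adjusted p = 0.9995 in limma), the third highest among members. HEATR1, RRP12 and TBL3 followed, at 0.15 ± 0.15, 0.12 ± 0.13 and 0.12 ± 0.18 (SE), each highest on ROR1xTCL1 array b.

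NAT10, the acetyltransferase of the small subunit's rRNA, had values of 7.45, 7.47, 7.34 and 7.39 on ROR1xTCL1 arrays a to d, against 7.21, 7.37, 7.45 and 7.28 on TCL1 arrays a to d, and differed by 0.09 ± 0.10 (SE), or by 0.05 without TCL1 array a. TCL1 array c was as high as the upper ROR1xTCL1 arrays, and TCL1 array b lay among them. NOL6, another processome protein, had 7.33, 7.39, 7.34 and 7.44 on ROR1xTCL1 arrays a to d, against 7.20, 7.48, 7.40 and 7.35 on TCL1 arrays a to d, a difference of 0.02 ± 0.10 (SE). The only 2 members of this role below 0 were UTP15 and PNO1, at -0.03 ± 0.10 and -0.04 ± 0.19 (SE).

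Among the 11 pre-60S members the differences ran both ways, with 7 above 0 and a median of 0.01. RRS1, which helps to bring the smallest rRNA into the large subunit, had the highest difference of all members over the 8 arrays. Its values were 5.17, 6.07, 5.15 and 5.71 on ROR1xTCL1 arrays a to d, against 4.83, 4.98, 5.40 and 5.60 on TCL1 arrays a to d. ROR1xTCL1 arrays b and d were above every TCL1 array, while a and c lay inside the TCL1 range. The difference was 0.32 ± 0.25 (SE), with an interval from -0.24 to 0.89. Without ROR1xTCL1 array b it was 0.14, below CAD (0.27) and UTP20 (0.16) on the same arrays, and without TCL1 array a it was 0.20. EBNA1BP2, another large subunit assembly factor, differed by 0.21 ± 0.12 (SE).

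The 3 lowest differences also belonged to pre-60S members. NIP7 had values of 5.93, 5.80, 5.68 and 5.66 on ROR1xTCL1 arrays a to d, against 6.001, 5.87, 5.83 and 5.80 on TCL1 arrays a to d. ROR1xTCL1 arrays b, c and d lay below every TCL1 array, b only just, and a within their range, with a difference of -0.11 ± 0.10 (SE). It was -0.07 without ROR1xTCL1 array d, as well as without TCL1 array a. NOL9, a polynucleotide kinase that acts on the precursor of the large subunit's rRNA, had 7.80, 7.98, 8.12 and 7.98 on ROR1xTCL1 arrays a to d, against 8.07, 8.03, 8.07 and 7.97 on TCL1 arrays a to d, a difference of -0.07 ± 0.10 (SE). PPAN had 7.51, 7.86, 7.48 and 7.54 on ROR1xTCL1 arrays a to d, against 7.54, 7.73, 7.61 and 7.73 on TCL1 arrays a to d, a difference of -0.05 ± 0.12 (SE). In PPAN 1 array, ROR1xTCL1 b, stood above the remaining 7, whereas in NOL9 1 array, ROR1xTCL1 a, stood below them. Leaving out 1 array at a time moved PPAN between -0.14, without ROR1xTCL1 array b, and -0.01, without array c. It moved NOL9 between -0.12, without ROR1xTCL1 array c, and -0.01, without array a.

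BOP1, PES1 and WDR12 form 1 complex in large subunit assembly, and their differences were -0.04 ± 0.12, 0.02 ± 0.23 and 0.01 ± 0.18 (SE). The remaining pre-60S members NOP2, an rRNA methyltransferase, NOP16 and WDR74 differed by 0.12 ± 0.12, 0.01 ± 0.17 and 0.11 ± 0.09 (SE).

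The 4 nucleolar proteins in the gene table had differences of 0.02 to 0.12. NCL, nucleolin, one of the most abundant nucleolar proteins, had values of 10.49, 10.11, 10.21 and 10.67 on ROR1xTCL1 arrays a to d, against 10.49, 10.46, 10.24 and 10.13 on TCL1 arrays a to d. The groups overlapped, with ROR1xTCL1 array d above every TCL1 array and array b below them all, and the difference was 0.04 ± 0.15 (SE). DDX21, a nucleolar RNA helicase, differed by 0.12 ± 0.13, GNL3, the nucleolar GTPase nucleostemin, by 0.02 ± 0.19, and MYBBP1A, a nucleolar Myb-binding protein, by 0.03 ± 0.11 (SE).

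CAD had the second highest difference. Its log2 values were 6.41, 6.45, 6.52 and 6.78 on ROR1xTCL1 arrays a to d, against 6.30, 6.33, 6.51 and 6.09 on TCL1 arrays a to d. Only TCL1 array c kept the groups from separating. The difference was 0.24 ± 0.13 (SE), 1.18-fold, with an interval from -0.05 to 0.53 and an unadjusted p of 0.0975 (adjusted p = 0.9995 in limma). Without ROR1xTCL1 array d it was 0.16.

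**Figure D2:**
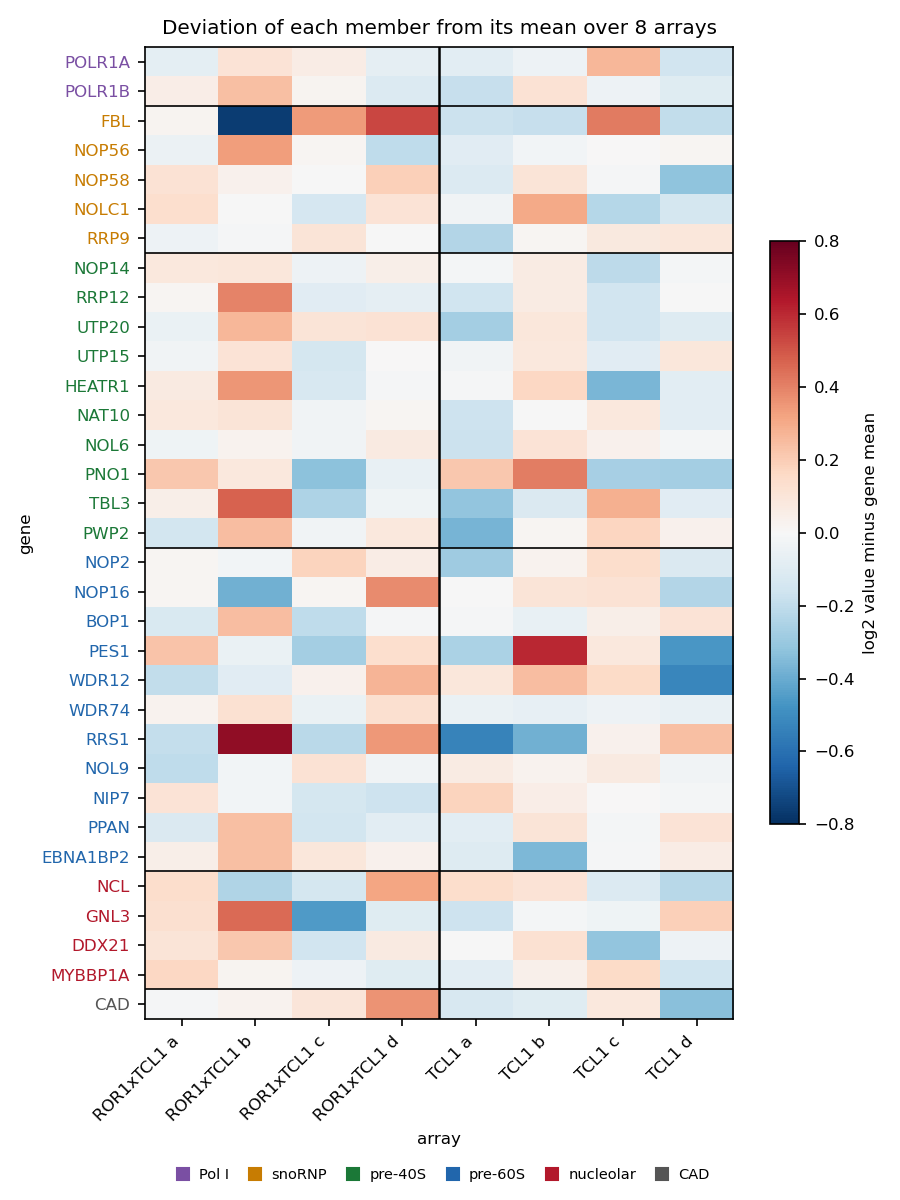
Log2 value of each member minus its own mean over the 8 arrays (colour; red above, blue below the mean), with members as rows grouped by role and arrays as columns, ROR1xTCL1 left of TCL1. ROR1xTCL1 array b is the highest array for 16 of the 33 members and TCL1 array a the lowest for 10.

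A score, the mean over the 33 members of the deviation from each gene's mean over 8 arrays, placed the groups close together. It was 0.02, 0.11, -0.06 and 0.07 on ROR1xTCL1 arrays a to d, against -0.10, 0.05, 0.01 and -0.09 on TCL1 arrays a to d. The groups overlapped: ROR1xTCL1 array c lay below TCL1 arrays b and c. The mean was 0.034 ± 0.070 in ROR1xTCL1 mice and -0.034 ± 0.073 in TCL1 mice (SD, n = 4 each). The difference of 0.068, 1.05-fold, was below the pooled SD within groups of 0.072, and the whole range over the arrays, 0.21, corresponded to 1.16-fold. Without ROR1xTCL1 array b the difference was 0.043 and without TCL1 array a it was 0.044.

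The extremes were spread unevenly over the arrays. ROR1xTCL1 array b had 23 of 33 members above their own mean, TCL1 array b 22 and TCL1 array a 5. ROR1xTCL1 array b was the highest array for 16 members, among them the processome or pre-40S factors NOP14, RRP12, UTP20, UTP15, HEATR1, NAT10, TBL3 and PWP2, and at the same time the lowest for NCL, FBL and NOP16. ROR1xTCL1 array d was highest for those 3 and for NOP58, WDR12, WDR74 and CAD. TCL1 array d was the highest array for 0 members and the lowest for 6.

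The members varied together only loosely. Over the 528 pairs the mean Pearson r across the 8 arrays was 0.16 and the median 0.17, with 348 pairs above 0 and 43 over 0.7, and the mean over pairs of all genes was 0.02. The first principal component held 38.3% of the members' variance, against 27.5% over all genes. It was taken on unscaled values, so the most variable members, FBL (SD 0.42) and RRS1 (SD 0.41), weigh most. The sets also differ in size, so these shares do not compare coherence. Arrays of both groups enter these correlations, and on deviations from the group means the mean r was 0.14. Pairs of the same role averaged 0.17 (117 pairs) and pairs of different roles 0.15 (411 pairs).

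By role, the mean r ran from -0.03 to 0.41. The 10 processome and pre-40S members had a mean pairwise r of 0.41, the 2 polymerase subunits 0.35, the 4 nucleolar proteins 0.10, the 11 pre-60S members 0.02 and the 5 snoRNP members -0.03. The highest pairs were NOP14 with DDX21 (r = 0.96), HEATR1 with DDX21 (0.96) and NOP14 with HEATR1 (0.90), 2 processome proteins and a helicase. At the other end, NOP56 ran against NOP16 (-0.86) and NCL (-0.79), and FBL against RRP12 (-0.79), PPAN (-0.78) and HEATR1 (-0.76). Among proteins that share a particle, FBL and NOP56 had r = -0.75 and BOP1 and PES1 -0.21, while PES1 and WDR12 had 0.59 and the processome proteins TBL3 and PWP2 0.77. These values describe 8 arrays and carry no test.

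**Figure D3:**
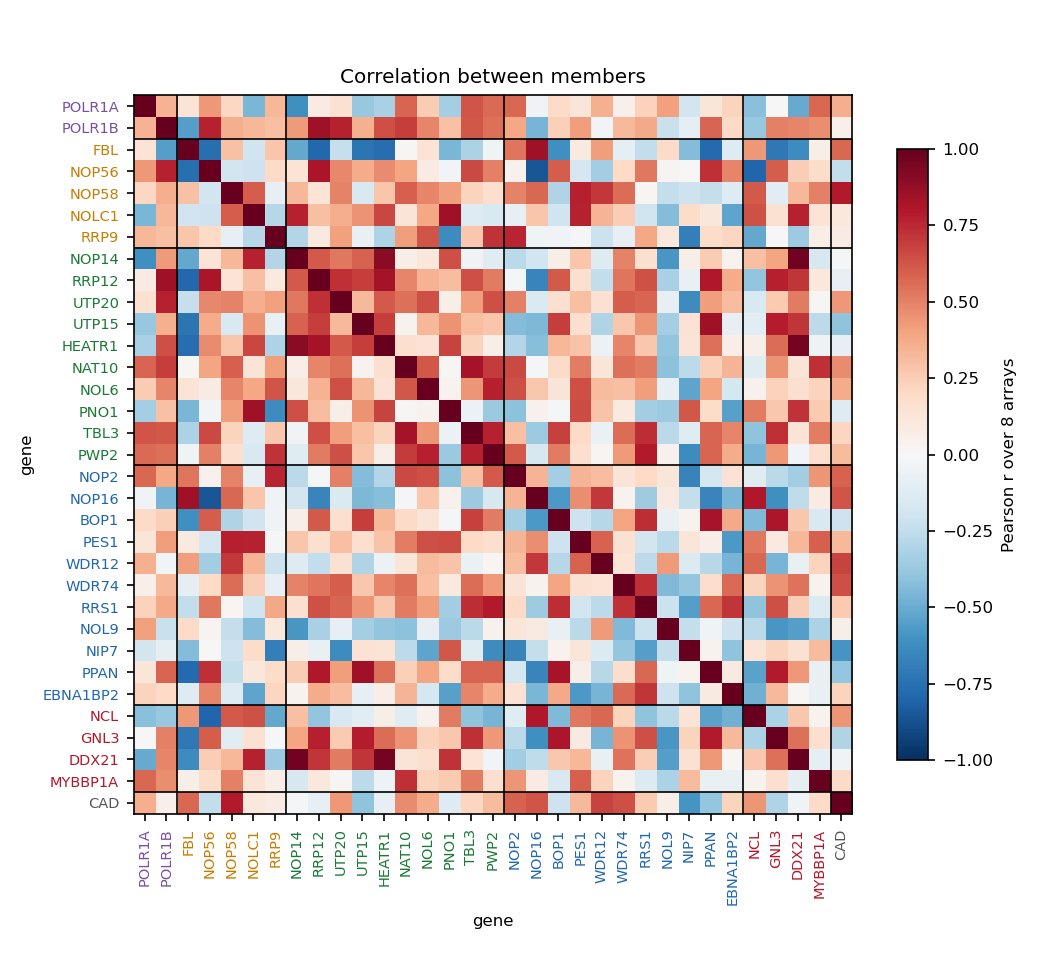
Pearson r between members over the 8 arrays (colour), with members in the same order along both axes and lines between roles. The processome and pre-40S block holds mostly positive values, with a mean of 0.41, while FBL and NCL run against many members.

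Each member was also set against the mean of the others. This r was above 0 for 29 members, over 0.5 for 10 and over 0.7 for 5, with a median of 0.39. NAT10 (0.80), NOL6 (0.734) and UTP20 (0.729), all processome or pre-40S factors, followed the set most closely. The other members over 0.7 were WDR74 (0.725), a pre-60S factor, and NOP58 (0.71), a snoRNP protein. NOL9 (-0.36), NIP7 (-0.35) and FBL (-0.32) ran against it, and NCL had 0.06.

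Among the 16386 genes that are no members, 10 were most like the score, at r of 0.87 to 0.90 over 8 arrays. They were MSTN, DUS1L, RPS24, CD163L1, AIFM2, SHMT1, SPNS2, NDN, RAB34 and NSMCE1. DUS1L, a tRNA-modifying enzyme, had values of 5.90, 6.01, 5.88 and 5.92 on ROR1xTCL1 arrays a to d, against 5.67, 5.94, 5.92 and 5.65 on TCL1 arrays a to d. RPS24, a ribosomal protein, had the widest range of them, from 6.54 on ROR1xTCL1 array b to 5.08 on TCL1 array a. These are also the highest and lowest arrays of the score, which follows from picking the genes by their r with it. Among 16386 genes and over only 8 arrays such r can arise without any relation, and none was tested. MSTN was dimmer than the first quartile of all genes. No gene of a list of other ribosome biogenesis factors was among the 100 genes most like the score. Only 84 genes of that list were measured, against 16386 genes in all, so 0 among 100 is near their share and no result about the list.

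That list of other ribosome biogenesis factors had 84 of 96 genes measured, 55 of them above 0, with a median difference of 0.05. None passed the adjusted threshold in limma, none had an unadjusted p under 0.05, and NOC3L, a pre-60S export factor, was the 1 gene higher without overlap, as 0.359% of all genes were. NOC3L had 7.34, 7.36, 7.47 and 7.58 on ROR1xTCL1 arrays a to d, against 7.29, 7.30, 7.16 and 7.20 on TCL1 arrays a to d, a difference of 0.20 ± 0.10 (SE). The outermost genes were NOL10 at 0.25 ± 0.17 and RRP7A at -0.21 ± 0.13 (SE). Its mean pairwise r was 0.04, against 0.16 for the members.

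Of 77 cytosolic ribosomal proteins, 32 were measured, 19 of them above 0, with a median difference of 0.07 and none past the adjusted threshold. RPS13 differed by 0.65 ± 0.35 and RPS15 by -0.47 ± 0.20 (SE; unadjusted p = 0.0441 and adjusted p = 0.9995 for RPS15 in limma). RPS15 was low, averaging 3.89 in ROR1xTCL1 and 4.37 in TCL1 mice. Over all genes of an array the first quartiles were 3.52 to 3.71 and the medians 5.03 to 5.09. The score of the 32 ribosomal proteins reached from 0.11 on ROR1xTCL1 array b to -0.21 on TCL1 array c.

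MYC did not separate the groups, with log2 values of 10.26, 10.32, 9.64 and 9.77 on ROR1xTCL1 arrays a to d, against 9.56, 9.63, 10.05 and 10.93 on TCL1 arrays a to d. Its highest value was on TCL1 array d, the array on which 9 of the 33 members were above their own mean. Its second highest was on ROR1xTCL1 array b, with 23 members above, and its lowest on TCL1 array a, with 5. Whether MYC and the members varied together was not tested. The difference was -0.05 ± 0.31 (SE). Of 14 genes of the MYC network 13 were measured, 6 of them above 0, with a median of -0.02 and none past the adjusted threshold, from MNT, a MYC antagonist, at -0.23 ± 0.19 to MLX, a dimer partner in the network, at 0.20 ± 0.17 (SE).

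Nucleotide synthesis, the pathway of CAD, had 15 of 19 listed genes measured, 8 of them above 0, with a median of 0.05 and none past the adjusted threshold. CTPS, which makes CTP, was 6.02, 6.22, 5.56 and 5.84 on ROR1xTCL1 arrays a to d, against 5.64, 5.51, 5.54 and 5.54 on TCL1 arrays a to d. It differed by 0.35 ± 0.14 (SE; unadjusted p = 0.0377, adjusted p = 0.9995 in limma), with ROR1xTCL1 array c inside the TCL1 range. ADSL, a purine synthesis enzyme, differed by -0.34 ± 0.14 (SE; unadjusted p = 0.0429, adjusted p = 0.9995 in limma).

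Proliferation genes varied far more between mice than the members did, and in another order. Of the 22 measured cell cycle and mitosis genes 21 were above 0, with a median of 0.20 and none past the adjusted threshold. Their score was 0.59, -0.39, -0.07 and 0.25 on ROR1xTCL1 arrays a to d, against 0.18, -0.38, 0.32 and -0.50 on TCL1 arrays a to d, and their mean pairwise r was 0.78. ROR1xTCL1 array b, which had the highest member score, had the second lowest cell cycle score. TCL1 array d, in contrast, had the lowest cell cycle score and the second lowest member score, and ROR1xTCL1 array d was above 0 in both. A link between these scores was not tested. DNA replication genes had 19 of 22 above 0 and a median of 0.13, from CDT1 at -0.07 ± 0.11 to UHRF1 at 0.49 ± 0.34 (SE).

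Targets of p53, which is stabilised when ribosome assembly is disturbed, had 5 of 9 measured genes above 0 and a median of 0.06. CDKN1A, the cell cycle inhibitor, differed by 0.19 ± 0.25, and BBC3, a cell death gene, by -0.16 ± 0.10 (SE), with BBC3 lower in ROR1xTCL1 mice without overlap, as 0.737% of all genes were. Unfolded protein response genes had 16 of 19 above 0 and a median of 0.16, from DDIT3 at -0.37 ± 0.41 to SDF2L1 at 0.50 ± 0.42 (SE). None of either list passed the adjusted threshold.

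**Figure D4:**
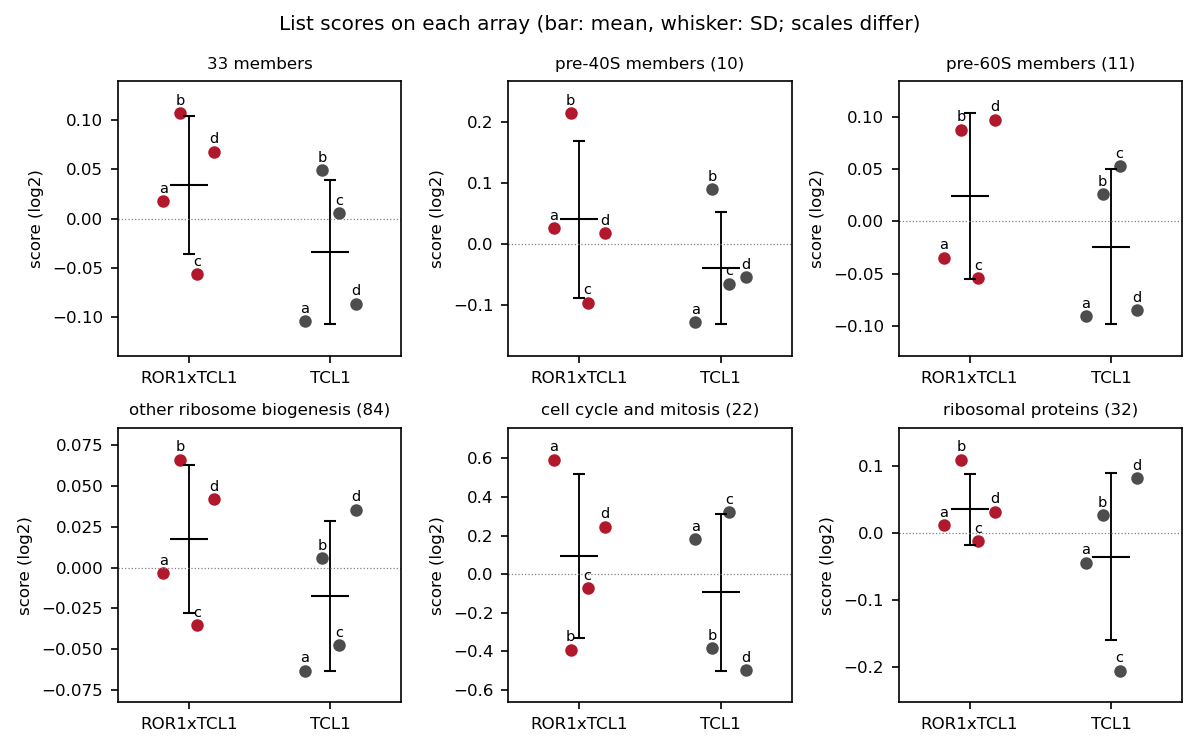
Score of 6 gene lists on each array, as the mean log2 deviation from each gene's mean over the 8 arrays (points with array letters; bars are group means and whiskers SDs, n = 4 each; the vertical scales differ). The member score spans 0.21 log2 units with overlapping groups, and the cell cycle score orders the arrays differently.

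Marker scores of other cell types varied over the arrays, and in bulk RNA fewer cells of a type cannot be told apart from less RNA per cell. The erythroid marker score, over 12 of 14 genes, ran from -0.95 to 1.83 on ROR1xTCL1 arrays and from -0.61 to 0.46 on TCL1 arrays, highest on ROR1xTCL1 array a. The plasma cell score (9 of 10 genes) ran from -0.65 to 1.15 in ROR1xTCL1 and from -0.77 to 0.66 in TCL1 mice, and the neutrophil score (14 of 15) from -0.75 to -0.14 in ROR1xTCL1 and from -1.25 to 2.73 in TCL1 mice, highest on TCL1 arrays a and c. The monocyte and macrophage score (13 of 13) ran from -0.45 to 0.83 in ROR1xTCL1 and from -0.86 to 1.05 in TCL1 mice, and the T cell score (12 of 13) from -0.52 to 0.33 in ROR1xTCL1 and from -0.46 to 0.65 in TCL1 mice. The natural killer score (10 of 10) ran from -0.23 to 0.19 in ROR1xTCL1 and from -0.67 to 0.52 in TCL1 mice. All 11 B cell markers were measured, with scores of -0.11 to 0.23 in ROR1xTCL1 and -0.15 to 0.16 in TCL1 mice. The part of these cell types in the member values was not tested. Without ROR1xTCL1 arrays a and d the member score difference was 0.059, and without TCL1 arrays a and c it was 0.052.

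The sex of the mice is not labelled, and the Y-linked gene DDX3Y was high, at 7.29 to 8.15, on ROR1xTCL1 arrays c and d and TCL1 array c, and at most 2.88 on the others. Among the arrays with low DDX3Y, 2 ROR1xTCL1 against 3 TCL1, the member score differed by 0.109 and 26 members were above 0. Among those with high DDX3Y, 2 against 1, it differed by 0.0003 and 16 members were above 0. With high or low DDX3Y as a covariate of 2 classes the difference over all 8 arrays was 0.070.

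The probe set table gave a second summary of the same arrays and held all 40 members, in 990 probe sets. Values were averaged over a gene's probe sets for 22182 genes, and the replicates, numbered 1 to 4 by their labels, could not be tied to the letters of the gene table. In this summary 32 of 40 members were above 0, against 52.6% of genes, with a median difference of 0.07. No member passed the adjusted threshold in limma, and 0% of the genes did. The score was 0.09, 0.01, -0.02 and 0.08 in ROR1xTCL1 replicates 1 to 4, against -0.01, 0.02, 0.00 and -0.17 in TCL1 replicates 1 to 4. The mean was 0.040 ± 0.053 in ROR1xTCL1 mice and -0.040 ± 0.089 in TCL1 mice (SD, n = 4 each), with TCL1 replicate 4 below all others.

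WDR74, a partner of the ATPase NVL in large subunit assembly, was the 1 member of 40 whose replicates did not overlap in the probe set means. 0.568% of genes were higher and 0.649% lower in ROR1xTCL1 mice in this way. It had 6.25, 6.16, 6.16 and 6.26 in ROR1xTCL1 replicates 1 to 4, against 6.07, 5.89, 6.13 and 5.86 in TCL1 replicates 1 to 4, a difference of 0.22 ± 0.10 (SE; adjusted p = 0.9996 in limma). In the gene table the difference was 0.11 ± 0.09 and the groups overlapped by 1 array, ROR1xTCL1 c at 6.11 against TCL1 c at 6.12.

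Of the 7 members read only from probe sets, 6 were above 0. NPM1, nucleophosmin, a nucleolar histone chaperone, had 9.69, 9.74, 9.71 and 10.18 in ROR1xTCL1 replicates 1 to 4, against 9.86, 9.45, 9.69 and 10.16 in TCL1 replicates 1 to 4, with replicate 4 highest in both groups and a difference of 0.04 ± 0.18 (SE). DKC1, the pseudouridine synthase of box H/ACA snoRNPs, differed by 0.28 ± 0.25 (SE). Its values were 7.64, 7.07, 7.87 and 7.92 in ROR1xTCL1 replicates 1 to 4, against 7.51, 7.35, 7.75 and 6.77 in TCL1 replicates 1 to 4, and ROR1xTCL1 replicates 1 and 2 lay among the TCL1 values. TCL1 replicate 4 lay below all other replicates of both groups, and the difference of DKC1 without it was not computed. The processome proteins WDR43 and WDR75 differed by 0.11 ± 0.15 and 0.10 ± 0.13, the helicase DDX18 by 0.10 ± 0.11, and the nucleolar protein LYAR by 0.02 ± 0.09 (SE). POLR1C, a subunit shared by RNA polymerases I and III, differed by -0.12 ± 0.17 (SE).

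**Figure D5:**
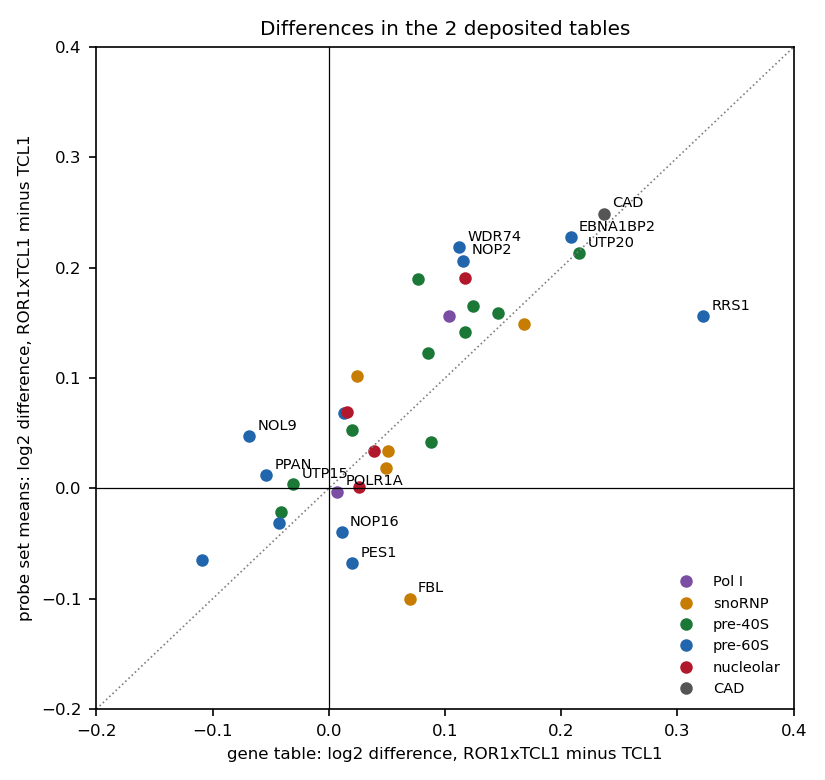
Log2 difference of the 33 members between ROR1xTCL1 and TCL1 mice in the gene table (horizontal axis) and in the means of their probe sets (vertical axis), coloured by role, with the line of equality dotted. 26 of 33 points lie on the same side of 0 on both axes, and the named points near 0 are those that do not.

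Both tables come from the same arrays, so the second is no independent support. Differences had the same sign in both for 26 of 33 members, and the exceptions were FBL, NOP16, PES1, POLR1A, UTP15, NOL9 and PPAN. UTP20 (0.21 ± 0.13), CAD (0.25 ± 0.16) and EBNA1BP2 (0.23 ± 0.15) had differences of similar size in the probe set means, while RRS1, with 4 probe sets, had 0.16 ± 0.21 (SE). FBL had only 3 named probe sets, and its mean log2 value was 9.12 in the gene table, whereas its probe set means averaged 4.73 ± 0.26 in ROR1xTCL1 mice and 4.83 ± 0.23 in TCL1 mice (SD, n = 4 each). In the probe set means the mean pairwise r was 0.55 for the 3 polymerase subunits, 0.35 for the 12 processome and pre-40S members, 0.08 for the 6 nucleolar proteins, 0.06 for the 6 snoRNP members and 0.01 for the 12 pre-60S members. HEATR1 with DDX21 had r = 0.88 and TBL3 with PWP2 0.76 in the probe set means, while NOP14 with HEATR1 had 0.37, against 0.90 in the gene table. NCL with NOP56 had -0.76, FBL with NOP56 -0.30 and NOP56 with NOP16 -0.31, and BOP1 with PES1 turned positive, at 0.15.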

How the data were processed

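The authors deposited log2 RMA values of 1236087 probe sets, made with the Bioconductor package oligo per the labels (R 2.15.1 per the submitters' processing notes), and a table of 1 value per gene. The gene table's scale is not stated, and its deposited values were read as log2 because of their range. How the authors summarised probe sets into genes is likewise not stated. Values of both tables were read as relative to the other genes of an array. Quantile normalization is a step of RMA, but in the gene table the first quartiles still differed between arrays, from 3.52 to 3.71. Gene table columns show the genotype only, and letters a to d name a group's arrays. There, 4 rows named by a number were left out and 72 repeated names averaged, leaving 16419 genes, of which 14742 matched a current symbol and 1453 a synonym in RefSeq (GRCm38.p6). Probe sets with 1 symbol (321091) were averaged per gene, and 7796 with several and 907200 without a name were not used.

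The groups were compared by lmFit and eBayes of limma 3.58.1 (R 4.3.3), 2-sided with no covariate and no filter, as ROR1xTCL1 minus TCL1. P-values were adjusted by Benjamini-Hochberg over every gene of a table, and 0.05 was the threshold. The test was also run on simulated data. Precision is limited by 4 arrays per group. The alternatives tried, described in the closing section, concern left-out arrays, normalization, probe set summaries, dim genes, a covariate and the score.

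Members and lists were chosen with earlier results of these data known. Members were named array by array if outermost in difference, in correlation with the others or in spread, or if they were NCL, NPM1, FBL or CAD; each other list is represented by its largest and smallest difference, and MYC was always named. WDR74 and NOC3L, which did not overlap, and DKC1, DUS1L and RPS24 were described in more detail after their values were seen.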

Additional observations from a re-analysis of the deposited data

Results flagged for a closer look

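Within a group of 4 arrays, an array was taken to stand apart where its gap to the nearest of the others, divided by the group's range, exceeded Dixon's 95% critical value. Of 68 such groups (33 members and the member score in both genotypes), 2 had an array apart, where chance gives about 1 in 20. FBL was 9.53 on TCL1 array c, with the other TCL1 arrays at 8.92 to 8.94. PPAN was 7.86 on ROR1xTCL1 array b, with the other ROR1xTCL1 arrays at 7.48 to 7.54. Both values are from the gene table. In the probe set means, to which the rule was not applied, FBL was 4.87, 4.83, 4.54 and 5.095 in TCL1 replicates 1 to 4. PPAN was 6.87, 7.03, 6.93 and 6.82 there in ROR1xTCL1 replicates 1 to 4.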

How the results depend on the processing

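No member passed the adjusted threshold under any of the 19 alternatives run. The number of members above 0 was 21 to 28 over 18 alternatives, the mean pairwise r was 0.11 to 0.21, and the score difference stayed above 0 in all 20, from 0.043 without ROR1xTCL1 array b to 0.104 with probe set medians (0.369 in units of each member's SD). RRS1, CAD, UTP20, NIP7 and NAT10 kept their sign in all 19, whereas NOL9, PPAN, NOL6, FBL and NCL each changed sign in at least 1, and NPM1, absent from the gene table, was not among the results recomputed. Leaving out 1 array at a time gave differences of -0.059 to 0.13 for NCL, -0.10 to 0.33 for FBL and -0.034 to 0.060 for NOL6. Without both ROR1xTCL1 arrays of the highest erythroid and plasma cell scores, NOL9 was 0.012, PPAN 0.019, FBL -0.18 and NCL -0.17, and without both TCL1 arrays of the highest neutrophil scores NOL6 was -0.037. Probe set means gave 0.047 for NOL9, 0.012 for PPAN and -0.10 for FBL, probe set medians 0.23 for NOL9, 0.024 for PPAN and -0.073 for FBL, and high or low DDX3Y as a covariate gave -0.11 for FBL. The cause was not tested. Same-numbered replicates of the 2 groups correlated at 0.23, -0.00, 0.22 and 0.11, and differently numbered ones at -0.23 to 0.32. The same-numbered TCL1 replicate correlated highest with ROR1xTCL1 replicates 1, 3 and 4, but TCL1 replicate 4 did with replicate 2. The labels do not say that the numbers pair the samples, and no pairing was assumed. With the replicate number as a block the probe set means called 0 members and the score difference was 0.082. NOL9, PPAN and FBL were again 0.047, 0.012 and -0.10.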
